A study of Mus musculus with 16 samples.

Results

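Kidneys of female mice with a Klotho mutation on both alleles (Kl/Kl) were compared with kidneys of wild-type females (+/+) by sequencing of polyadenylated RNA. The comparison takes in 8 of the 16 libraries of the series, those numbered S1 to S8, which the submitters placed in 1 table. The controls were 4 +/+ females of 45, 45, 49 and 48 days (replicates 1 to 4, libraries S1, S7, S6 and S3), with healthy kidney function per the labels. The Kl/Kl group held 4 females labelled as having renal failure, of which replicates 1, 2 and 4 (libraries S2, S8 and S4, of 45, 45 and 48 days) entered the main comparison. Kl/Kl replicate 3 (library S5, 54 days) was left out because it carried little kidney RNA, as described below, which leaves 7 libraries. All mice were congenic on the inbred strain 129S1/SvlmJ, and kidneys were perfused, dissected and frozen, with no other treatment named. The mutation is carried in the germline and so by every cell, and its effects outside the kidney were not separated from those within it. The rest of the series is a table of 8 male libraries (3 +/Kl controls and 5 Kl/Kl), used here only where stated. The labels do not say that each library came from a separate animal, so p-values measure the spread between these libraries.

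Klotho is a transmembrane protein made mainly by the distal tubule of the kidney, where it acts with an FGF receptor as the co-receptor for FGF23, a bone hormone. FGF23 signalling lowers reabsorption of phosphate in the proximal tubule, represses Cyp27b1, which encodes the enzyme that makes active vitamin D, and induces Cyp24a1, which encodes the enzyme that breaks it down. Mice that lack Klotho have high plasma phosphate and active vitamin D, calcify soft tissues and age early.

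Before any comparison the libraries were set side by side. Among the 7 libraries Spearman correlations over genes were 0.968 to 0.98 within controls, 0.969 to 0.975 within Kl/Kl and 0.95 to 0.973 between the groups, and the summed level of 10 kidney marker genes was 749 to 944 TPM. Library S5 had a median Spearman correlation of 0.554 with them and a kidney marker sum of 15.9 TPM, while its heart muscle, airway and adipocyte sums were 2090, 1070 and 1370 TPM against at most 2.35, 1.24 and 25.9 TPM elsewhere. Kl/Kl replicate 2 had the lowest estimated depth of the 7 (21.7 M reads against 27.5 to 31.3 M) and the highest sum of 5 blood genes (1230 TPM against 27.6 to 89.9 TPM). Control replicate 1 had the highest sum of the tubular injury genes, 538 TPM, against 203 to 267 TPM in the other controls and 336 to 502 TPM in Kl/Kl. Most of this sum is 1 gene, Spp1, at 431 TPM in control replicate 1 and 110 to 168 TPM in the other controls. From their low values, these TPM appear to be divided by the span of the gene on the chromosome, introns included, so levels of different genes are not compared.

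The targeted gene was measured first. Kl (ENSMUSG00000058488, chromosome 5, 150876072 to 150917283, plus strand, build mm39) was 21.2, 9.18, 18.3 and 14.1 TPM in control replicates 1 to 4 and 0.321, 0.092 and 0.518 TPM in Kl/Kl replicates 1, 2 and 4. Every Kl/Kl library lay far below every control, and the groups were 2.75 apart on the log2(TPM + 1) scale at their nearest libraries. Kl/Kl kidneys kept 1.98% of the control mean, 0.31 ± 0.213 TPM (SD, n = 3) against 15.7 ± 5.22 TPM (SD, n = 4). On the log2(TPM + 1) scale Kl fell by 3.63 (SE 0.25, limma adjusted p = 0.00157), and it passed the threshold without any 1 of the 7 libraries (highest adjusted p = 0.0202). The two-sided exact permutation p = 0.0571 is the smallest that 35 arrangements of 7 libraries allow. In bulk tissue, fewer cells of a type and less RNA per cell cannot be told apart, here and in all results that follow.

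Over all 8748 genes that averaged 1 TPM or more, few passed adjustment for multiple testing, although many had groups that did not overlap. At a limma adjusted p under 0.05, 5 genes rose (0.0572% of genes tested) and 4 fell (0.0457%), and at an unadjusted p under 0.05 there were 1212 higher and 402 lower. In 1068 genes (12.2%) every Kl/Kl library lay above every control, and in 341 genes (3.9%) every Kl/Kl library lay below. These shares are the background for the counts that follow. With a library left out the background moves too: the higher and lower shares were 14.6% and 4.84% without Kl/Kl replicate 2. They were 18.0% and 6.87% without Kl/Kl replicate 4, and 29.6% and 4.57% without control replicate 1. The median difference over all genes was 0.0586, with 69.5% of genes above 0. After median-of-ratios scaling the median was 0.0013, and the groups were apart in 705 genes upward and 738 downward, so that the higher share of separated genes went from 75.8% to 48.9%. With scaling to the nuclear genes it was 55.2%. Mitochondrial transcripts took 37.8% to 39.7% of summed values in Kl/Kl and 40.2% to 42.2% in controls. Kl/Kl replicate 2 was the library farthest from the controls in 66.1% of the separated higher genes and 73.6% of the separated lower ones.

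**Figure D1:**
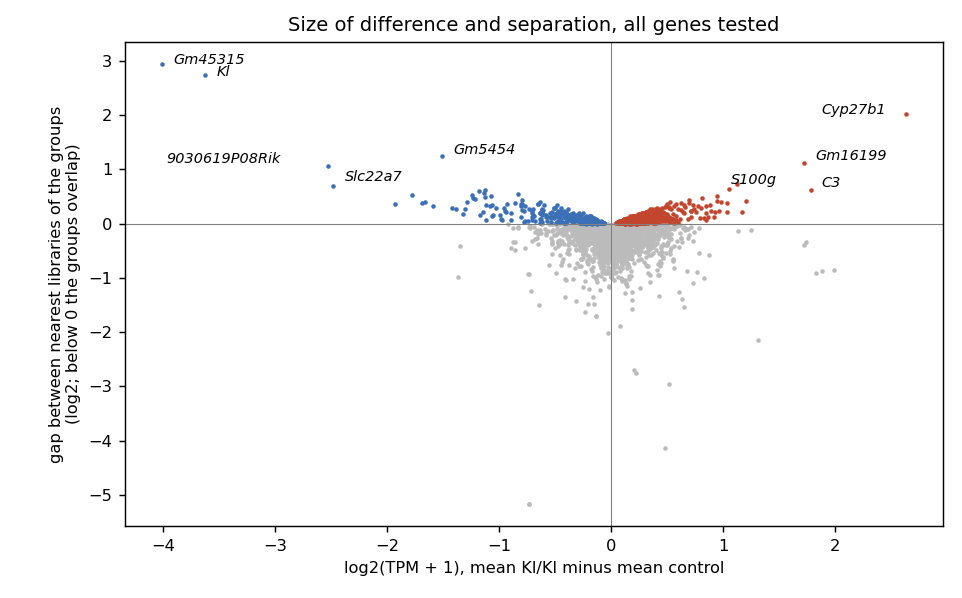
Each point is 1 of 8748 genes, with the difference of group means on the log2(TPM + 1) scale on the x axis and the gap between the nearest libraries of the groups on the y axis (log2, above 0 where the groups do not overlap; red is higher and blue is lower in Kl/Kl, grey overlaps). Kl, Gm45315, Cyp27b1, Gm5454, Gm16199 and 9030619P08Rik stand apart by a gap of at least 1, and most separated genes lie close to 0.

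The counts of calls depended on single libraries. Without Kl/Kl replicate 4 there were 22 higher and 26 lower calls. Without Kl/Kl replicate 1 or 2 there were 0 higher and 3 lower, and without control replicate 1, 2, 3 or 4 there were 3, 4, 1 or 2 higher and 4, 6, 3 or 4 lower. Separated higher genes numbered 2580 without control replicate 1 and 2100 without Kl/Kl replicate 1, and separated lower ones 527 without control replicate 2, 666 without Kl/Kl replicate 1 and 600 without Kl/Kl replicate 4. With the replicate number as a block in the fit, a pairing read from these same values, 7 genes were called higher and 10 lower. Of the 9 calls, 7 were also made in that fit.

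Among genes with a regular symbol, Cyp27b1, the vitamin D enzyme gene, was the one that rose. Cyp27b1 (chromosome 10, 126884119 to 126888876, plus strand) was 2.85, 1.08, 0.986 and 2.95 TPM in control replicates 1 to 4 and 18.6, 15.1 and 15.8 TPM in Kl/Kl replicates 1, 2 and 4. The highest control stayed far below the lowest Kl/Kl library, with a gap of 2.03 on the log2 scale. The mean was 8.39 times that of controls (16.5 ± 1.84 TPM, SD, n = 3, against 1.96 ± 1.08 TPM, SD, n = 4; log2 difference 2.63, SE 0.26, limma adjusted p = 0.0162). Its call ended without Kl/Kl replicate 1 or 2 (adjusted p = 0.0613 and 0.0712), and over all alternatives the adjusted p ran from 6.16e-05 to 0.745, the highest with S5 included.

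Other genes of the Klotho and vitamin D axis moved less. Of 12 tested members of this list of 14, 1 rose and 1 fell, and by separation 1 lay higher and 3 lower, with a list median of 0.0326. The vitamin D receptor gene Vdr was 4.15 to 5.62 TPM in controls and 4.14, 3.08 and 3.79 TPM in Kl/Kl replicates 1, 2 and 4, which leaves a gap of 0.0016 (log2 difference -0.27, SE 0.11, limma adjusted p = 0.259). Lrp2, which encodes megalin, the endocytic receptor that takes up vitamin D with its carrier, was 39.2, 32.1, 38.4 and 30.7 TPM in controls and 24.7, 16.97 and 27.2 TPM in Kl/Kl. All 3 Kl/Kl libraries lay below the controls (log2 difference -0.61, SE 0.16, adjusted p = 0.124). Its partner Cubn overlapped between the groups, at 3.97 to 4.91 TPM against 2.95 to 4.24 TPM. Cyp24a1 was 9.14, 13.9, 12.7 and 24.6 TPM in controls and 10.1, 11.9 and 8.72 TPM in Kl/Kl, so the groups overlapped, and control replicate 4 was highest (log2 difference -0.44, SE 0.27, adjusted p = 0.404). Fgfr1, an FGF receptor known to pair with Klotho, was 0.974 to 1.27 TPM against 1.22 to 1.497 TPM, with an overlap. The other receptor genes of the list overlapped too, with log2 differences of 0.08 for Fgfr3, 0.06 for Fgfr4, 0.13 for Pth1r (the receptor of parathyroid hormone) and 0.13 for Rxra (the partner of the vitamin D receptor).

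In the list of phosphate and calcium transport, 8 of 14 genes were tested, and only S100g had groups apart among them. Another 2 members were apart and lower without Kl/Kl replicate 4. S100g encodes calbindin-D9k, which binds calcium in distal tubule cells and is a known vitamin D target. It was 76.2, 86.8, 70.2 and 68.9 TPM in control replicates 1 to 4 and 147, 171 and 123 TPM in Kl/Kl replicates 1, 2 and 4. Each Kl/Kl library was above each control, with a gap of 0.50 (log2 difference 0.95, SE 0.13, limma adjusted p = 0.052, and 0.0339 with the replicate block). Over the libraries left out in turn its adjusted p ran from 0.0171, without Kl/Kl replicate 4, to 0.2, without control replicate 3. Calb1, the larger calbindin of the same cells, was 16.98 to 21.3 TPM in controls and 13.6 to 21.3 TPM in Kl/Kl. The proximal tubule phosphate carrier genes did not separate: Slc34a1 was 206 to 245 TPM against 189 to 255 TPM (log2 difference -0.08, SE 0.11), and Slc34a3 was 13.1 to 15.8 TPM against 11.3 to 17.7 TPM (log2 difference -0.06, SE 0.14). The widely made carrier gene Slc20a1 and the scaffold gene Pdzk1 also overlapped, with log2 differences of 0.11 and -0.12.

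**Figure D2:**
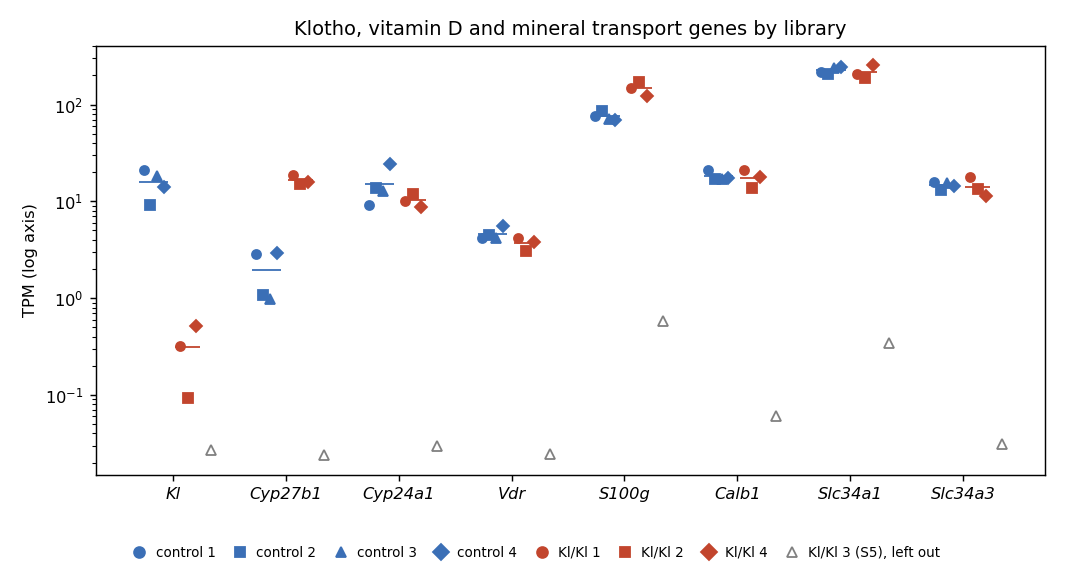
TPM on a log axis for 8 genes of the Klotho, vitamin D and mineral transport lists, with blue points for the 4 controls, red points for the 3 Kl/Kl libraries, horizontal lines at the group means and an open triangle for S5, which was left out. Kl is lower and Cyp27b1 and S100g are higher in all 3 Kl/Kl libraries, Vdr is barely apart, the groups overlap in the other 4 genes, and S5 lies below every other library in each of the 8 genes.

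Of the other 7 genes past the threshold, 5 were pseudogenes. Pseudogenes share reads with near-identical copies, so the level of each is uncertain. Gm45315, a processed pseudogene on chromosome 7 (12531456 to 12531789), was 14.4 to 28.7 TPM in controls and at most 1.00 TPM in Kl/Kl (log2 difference -4.01, SE 0.27, limma adjusted p = 0.00157). Gm5454, a processed pseudogene on chromosome 13 (103492760 to 103494213), was 4.46 to 4.98 TPM in controls and 0.683 to 1.31 TPM in Kl/Kl (log2 difference -1.51, SE 0.11, adjusted p = 0.00157). With Kl, these are the 3 calls of 9 that were kept without any 1 of the 7 libraries. Chrna4, which encodes a subunit of nicotinic acetylcholine receptors, was 2.63, 2.46, 2.97 and 3.00 TPM in controls and 1.36, 0.81 and 1.19 TPM in Kl/Kl (log2 difference -0.84, SE 0.10, adjusted p = 0.0387). The groups were apart, but the call of Chrna4 was kept in only 1 of the 7 fits that left out a library, the one without Kl/Kl replicate 4.

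The 4 genes that rose besides Cyp27b1 were pseudogenes or noncoding. Gm16199 was 0.0797 to 1.00 TPM in controls and 3.33 to 4.81 TPM in Kl/Kl (log2 difference 1.72, adjusted p = 0.0387, and 0.0706 with the replicate block). Gm6520 was 1.71 to 2.60 TPM and 4.63 to 6.75 TPM (log2 difference 1.06, adjusted p = 0.0442). Rpl13a-ps1, a ribosomal protein pseudogene, was 6.45 to 7.22 TPM and 9.79 to 10.6 TPM (log2 difference 0.53, adjusted p = 0.0442, and 0.113 with the block). The groups of each of these pseudogenes were apart, and each call was lost without Kl/Kl replicate 1 or 2. That of Gm16199 was also lost without control replicate 1 or 3, and was kept in 3 of the 7 fits that left out a library. The calls of Gm6520 and Rpl13a-ps1 were also lost without any 1 of the controls, and each was kept in only 1 of the 7 fits. In these fits the adjusted p was up to 0.152 for Gm16199, 0.103 for Gm6520 and 0.2 for Rpl13a-ps1. The long noncoding RNA gene 5930430L01Rik lies on chromosome 5 (148926866 to 148932034), 1.94 Mb from Kl. It was 1.13 to 2.33 TPM in controls and 4.51 to 4.98 TPM in Kl/Kl (log2 difference 1.13, SE 0.15, adjusted p = 0.048), with an adjusted p of up to 0.161 where a library was left out.

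Beyond the calls, the genes with the largest separated differences are given as values. Among genes with a regular symbol and at least 5 TPM in a group, the 10 largest positive differences were those of Cyp27b1 and of C3, Apoe, Ptgds, S100g, Ccn1, Ccnd1, Gc, Ugt1a1 and Nat8, those after Cyp27b1 with limma adjusted p from 0.052 to 0.104. C3, the central component of complement, was 6.46, 2.84, 4.56 and 3.12 TPM in control replicates 1 to 4 and 10.5, 14.4 and 28.8 TPM in Kl/Kl replicates 1, 2 and 4. Replicate 4 was the highest and control 1 the highest of the controls, with a log2 difference of 1.78 (SE 0.34, adjusted p = 0.0852). Apoe, the lipoprotein ligand that carries cholesterol, was 308, 341, 326 and 391 TPM in controls and 622, 946 and 513 TPM in Kl/Kl (log2 difference 0.98, SE 0.19, adjusted p = 0.0878). Controls kept within a narrow range, with all Kl/Kl libraries above it, and without Kl/Kl replicate 4 the adjusted p of Apoe was 0.0383.

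Ptgds, which makes prostaglandin D2, was 4.65 to 8.55 TPM in controls and 16.2, 10.2 and 14.8 TPM in Kl/Kl replicates 1, 2 and 4 (log2 difference 0.96, adjusted p = 0.094, and 0.0463 with the replicate block). The cell cycle gene Ccnd1, which encodes cyclin D1, was 24.7 to 36.3 TPM in controls and 62.4, 63.9 and 46.2 TPM in Kl/Kl (log2 difference 0.88, SE 0.17, adjusted p = 0.0852). Gc, the plasma carrier of vitamin D that megalin retrieves, was 4.82 to 7.67 TPM against 8.37 to 16.1 TPM. In these genes the highest value belonged to Kl/Kl replicate 2, except in Ptgds, where replicate 1 was highest. Ugt1a1, a bilirubin and drug glucuronosyltransferase whose reads can be shared with other Ugt1a genes, was 5.11 to 7.28 TPM against 9.38 to 17.6 TPM. Nat8, an N-acetyltransferase of the proximal tubule, was 35.6 to 67.8 TPM against 72.3 to 94.5 TPM, and the matrix signalling gene Ccn1 was 4.24 to 6.67 TPM against 7.30 to 15.1 TPM.

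Besides Kl, the 10 largest negative differences with separated groups ran from -2.48 to -1.23. Slc22a7, which encodes the organic anion transporter OAT2, was 16.0, 6.29, 16.4 and 5.28 TPM in control replicates 1 to 4 and 0.706, 0.0863 and 2.88 TPM in Kl/Kl replicates 1, 2 and 4 (log2 difference -2.48, SE 0.51, limma adjusted p = 0.0911). All Kl/Kl libraries lay below all controls, with replicate 2 lowest and replicate 4 nearest to the controls. The same order held in the paralogue Slc22a19, at 3.96 to 6.71 TPM in controls and 0.532, 0.0454 and 2.46 TPM in Kl/Kl. It also held in Scd1, the desaturase that makes monounsaturated fatty acids, at 61.3, 59.3, 49.5 and 24.4 TPM in controls and 11.6, 6.53 and 18.7 TPM in Kl/Kl (log2 difference -1.93, SE 0.39, adjusted p = 0.0911). Without Kl/Kl replicate 4 the adjusted p was 0.0424 for Slc22a7, 0.0116 for Slc22a19, 0.0123 for Mpv17l and 0.00777 for Cyp2a4. Without Kl/Kl replicate 2 it was 0.292, 0.283, 0.283 and 0.325 in the same order.

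Kap, an androgen-regulated protein of the proximal tubule that is abundant in mouse kidney, was 681, 356, 738 and 427 TPM in controls and 271, 115 and 144 TPM in Kl/Kl. The groups were apart, and each Kl/Kl library lay below its same-numbered control (log2 difference -1.66, SE 0.34, adjusted p = 0.0911, and 0.00899 with the replicate block). Aadat, an aminotransferase of lysine and kynurenine breakdown, was 17.9 to 39.8 TPM against 4.29 to 13.5 TPM, and Acy1, the aminoacylase of the kidney cytosol, was 49.97 to 99.6 TPM against 26.7 to 35.7 TPM (adjusted p = 0.0852, and 0.0309 without control replicate 4). The steroid hydroxylase gene Cyp2a4, which has near-identical copies, was 7.86 to 12.3 TPM against 2.13 to 6.89 TPM. Mpv17l, a protein of peroxisomes and mitochondria, was 16.6 to 20.03 TPM against 3.68 to 12.4 TPM. Kap and Cyp2a4 sit in lists of sex-biased kidney genes. Of 7 tested male-high genes 3 lay lower (Kap, Cyp4b1 and Odc1) and 0 higher. Their differences ran from -1.66 to 1.14, with 2 higher and 3 lower at a limma unadjusted p under 0.05. Without Kl/Kl replicate 2 or 4, 1 of the 7 lay higher (14.3%, against 14.6% and 18.0% of all genes). Of 6 female-high genes Cyp2a4 alone lay lower, or 3 of 6 without Kl/Kl replicate 4 or after median-of-ratios scaling. Cyp4b1, a fatty acid and xenobiotic hydroxylase, had a log2 difference of -1.06, with an adjusted p of 0.0383 without Kl/Kl replicate 4. The last of the 10, the histone gene H2bc13 and the sterol demethylase gene Cyp51, are described with their groups.

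**Figure D3:**
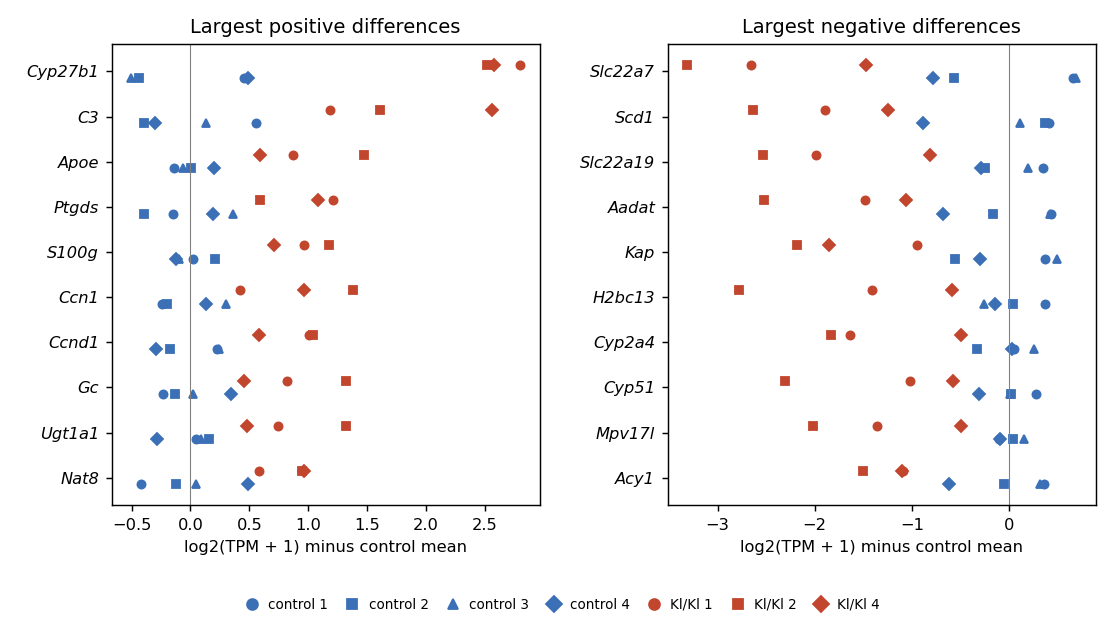
Log2(TPM + 1) minus the control mean for the 10 largest positive and 10 largest negative differences with separated groups, 1 row per gene, with blue points for the 4 controls and red points for the 3 Kl/Kl libraries. Kl/Kl replicate 2 (red squares) is the lowest library in all 10 genes on the right, and in C3 replicate 4 (red diamond) is the highest.

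Described by segment, the proximal tubule held most of the separated lower genes among the nephron lists. Of 31 proximal tubule genes, all tested, 8 had every Kl/Kl library below every control and 1 above, with a list median of -0.144, and limma called 0, with 2 higher and 9 lower at an unadjusted p under 0.05. Miox, the inositol oxygenase of proximal tubules, was 406, 495, 432 and 545 TPM in controls and 291, 227 and 368 TPM in Kl/Kl (log2 difference -0.69, SE 0.17, adjusted p = 0.104). Slc6a18, an amino acid transporter, was 70.5 to 81.0 TPM against 39.5 to 62.8 TPM (adjusted p = 0.0942, and 0.0356 without Kl/Kl replicate 4), and the aspartic protease gene Napsa was 160 to 235 TPM against 103 to 157 TPM. In all 3 genes replicate 2 was lowest and replicate 4 nearest to the controls. The separated lower members also include Slc22a7 and Lrp2, given above, the glucose carrier gene Slc5a1 (2.02 to 2.64 TPM against 1.22 to 1.92 TPM), the glutathione enzyme gene Ggt1 and the cystine carrier gene Slc7a9. The bicarbonate carrier gene Slc4a4 went the other way, at 4.45 to 5.02 TPM in controls and 5.83 to 5.92 TPM in Kl/Kl. The count of separated lower members was 8 without Kl/Kl replicate 2, 13 without Kl/Kl replicate 4 and 10 without control replicate 1. The lower shares over all genes were then 4.84%, 6.87% and 4.57%. The segment's transcription factor gene Hnf4a overlapped, at 12.3 to 14.5 TPM against 12.6 to 15.2 TPM.

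Among 16 tested genes of the ascending limb and distal tubule, 2 had groups apart and lower, with a median of -0.124. The lower count was 4 without Kl/Kl replicate 4 or without control replicate 1, and 5 after median-of-ratios scaling. The salt carrier gene Slc12a3 was 21.9 to 22.98 TPM against 17.5 to 20.7 TPM (log2 difference -0.27, SE 0.08, adjusted p = 0.129). Pvalb, the parvalbumin of the same segment, was 3.31 to 4.01 TPM against 2.56 to 2.98 TPM (log2 difference -0.32, SE 0.07, adjusted p = 0.094). In the collecting duct list of 15 tested genes none had groups apart, and limma called 0, with 0 at an unadjusted p under 0.05. Its largest positive difference was that of the water channel gene Aqp2, 66.6 to 90.6 TPM against 82.5 to 102 TPM. The count apart and higher was 2 of 15 without Kl/Kl replicate 4 and 3 of 15 without control replicate 1. Both are under the shares over all genes, 18.0% and 29.6%. Of 6 podocyte genes 2 lay higher, among them Nphs1, which encodes nephrin of the slit diaphragm, at 2.71 to 3.23 TPM against 3.59 to 3.71 TPM. Of 5 endothelial genes 0 were apart.

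Of 10 tested genes of the unfolded protein response, 3 that encode chaperones or folding enzymes of the endoplasmic reticulum were lower in every Kl/Kl library. The unfolded protein response is a stress pathway in which the sensors IRE1, PERK and ATF6 raise the folding capacity of the endoplasmic reticulum. Its nuclear arm acts in part through the ER stress element, a promoter motif of CCAAT, any 9 bases and CCACG, bound by NF-Y and ATF6. This motif was searched on both strands of the RefSeq promoter windows (GRCm38.p6, 250 bases before to 50 bases after a gene's start, matched by symbol), apart from the deposited coordinates, which are mm39. It is in 39 of 32851 windows (0.119%) and in 4 of the 13 genes of the unfolded protein response list, all 13 of which have a window. The sites in these 4 genes are shown with 20 bases on each side along the strand of the gene, since these 4 genes also have the lowest differences of the list. Capitals mark the 5 bases at each end of the motif, which reads CGTGG to ATTGG where it lies on the opposite strand.
Hspa5 (chr2:34772005-34772063, plus strand): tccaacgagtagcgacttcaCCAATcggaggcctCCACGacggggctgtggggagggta
Hsp90b1, distal site (chr10:86705618-86705676, minus strand): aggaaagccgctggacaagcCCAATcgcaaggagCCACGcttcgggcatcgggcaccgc
Hsp90b1, proximal site (chr10:86705513-86705571, minus strand): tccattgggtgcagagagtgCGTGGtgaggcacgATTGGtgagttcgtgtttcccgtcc
Calr (chr8:84847055-84847113, minus strand): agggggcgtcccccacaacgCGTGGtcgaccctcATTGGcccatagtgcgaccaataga
Pdia6 (chr12:17266471-17266529, plus strand): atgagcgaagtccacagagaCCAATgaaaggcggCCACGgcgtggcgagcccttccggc

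Hsp90b1, which encodes the chaperone GRP94, was 33.5, 40.3, 36.3 and 42.4 TPM in control replicates 1 to 4 and 28.7, 24.6 and 24.9 TPM in Kl/Kl replicates 1, 2 and 4 (log2 difference -0.53, SE 0.10, limma adjusted p = 0.0852). Calr, the lectin chaperone calreticulin, was 116, 128, 132 and 140 TPM in controls and 108, 82.4 and 82.8 TPM in Kl/Kl (log2 difference -0.51, SE 0.11, adjusted p = 0.094). Pdia6, a protein disulfide isomerase, was 8.43 to 9.81 TPM in controls and 7.64, 6.28 and 6.14 TPM in Kl/Kl (log2 difference -0.41, SE 0.09, adjusted p = 0.094). In these 3 genes the groups were apart, replicate 1 was the Kl/Kl library nearest to the controls, and control 1 was the lowest control. Hspa5, the chaperone BiP, was 81.7, 149, 133 and 120 TPM in controls and 88.4, 89.0 and 70.4 TPM in Kl/Kl, so that only control 1 kept the groups from separating (log2 difference -0.52, SE 0.20, adjusted p = 0.224). Among 10 tested members of the list 3 lay lower and 0 higher, with a median of -0.245. The lower count was 4 without Kl/Kl replicate 2 and 5 without control replicate 1. The other 6 tested members overlapped. Among them are the disulfide isomerase gene Pdia4, at 6.81 to 9.23 TPM against 6.27 to 7.06 TPM (log2 difference -0.30), and the co-chaperone gene Dnajb9, at 10.97 to 14.6 TPM against 12.6 to 14.7 TPM. Atf4 and Ddit3, transcription factors of the stress response, were 26.8 to 33.5 TPM against 28.7 to 39.9 TPM and 1.91 to 3.56 TPM against 2.08 to 3.04 TPM, and Xbp1 was 22.98 to 28.3 TPM against 19.2 to 25.8 TPM.

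The motif was then looked up in all tested genes, a search chosen after the values were seen. Of 5681 tested genes with a promoter window, 11 hold it, and in 8 of these the difference was below 0, with 5 genes separated and lower and 1 separated and higher. Besides the 3 named, the separated lower ones were Canx, the membrane-bound partner of calreticulin (log2 difference -0.20), and Dnajc3, a co-chaperone of BiP (-0.23). Creld2 and Syvn1, both of the endoplasmic reticulum, overlapped at log2 differences of -0.32 and -0.23. The higher one was Pan2, a deadenylase subunit (0.13), and the other 2 were Acnat2 (0.03) and Hnrnpa3 (0.09). A match describes these letters in the window and is not a measured site.

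Sets of ribosomal, histone and mitochondrial genes were added after the values had been seen and are given by count. Of 73 tested cytosolic ribosomal protein genes, 59 had every Kl/Kl library above every control and 0 below, and limma called 0, with 65 at an unadjusted p under 0.05. All 73 differences were above 0, with a median of 0.299. After median-of-ratios scaling 50 were still apart and higher and the median was 0.229. Rps9, a protein of the small subunit, was 79.5, 72.2, 73.2 and 71.2 TPM in controls and 93.5, 110 and 97.2 TPM in Kl/Kl, and Rpl13a, of the large subunit, was 69.9 to 75.6 TPM against 85.5 to 97.0 TPM. All 3 Kl/Kl libraries lay above the controls in each, and replicate 2 was highest. Ribosomal protein pseudogenes, which share reads with these genes, were separated and higher in 65 of 84, or 50 after the scaling. Without Kl/Kl replicate 2 the counts were 60 of 73 genes and 66 of 84 pseudogenes.

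Replication-dependent histone genes encode messages that normally end in a stem-loop rather than a poly(A) tail, so that the libraries, made from polyadenylated RNA, hold only part of them. Of 16 tested, 8 had every Kl/Kl library below every control and 0 above, with a median of -0.682. H2bc13 was 10.8, 8.36, 6.62 and 7.27 TPM in controls and 2.43, 0.33 and 5.06 TPM in Kl/Kl (log2 difference -1.60, SE 0.44, adjusted p = 0.127). H2bc12 was 15.1, 21.7, 21.9 and 17.6 TPM in controls and 10.9, 8.54 and 11.8 TPM in Kl/Kl (log2 difference -0.81, SE 0.15, adjusted p = 0.0852). In both genes replicate 2 was again the lowest library. The count was also 8 without Kl/Kl replicate 2, and it was 11 without Kl/Kl replicate 4. Histone gene copies are near-identical in sequence, so reads can be split among them.

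Of the 13 protein-coding genes of the mitochondrial genome, 4 lay lower and 0 higher, with a median of -0.0786. The lower count was 7 without Kl/Kl replicate 4 and 6 without control replicate 1. The members differed in size. mt-Nd2, a subunit of complex I, was 5789, 5118, 5911 and 6446 TPM in controls and 4299, 4189 and 4506 TPM in Kl/Kl (log2 difference -0.42, SE 0.08, limma adjusted p = 0.0852), whereas mt-Co1, of complex IV, overlapped with a log2 difference of -0.02. Of 25 nuclear genes of oxidative phosphorylation 0 were apart and limma called 0, with 0 at an unadjusted p under 0.05 and differences from -0.09 to 0.117.

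Lipid and steroid genes gave a split. Of 9 cholesterol synthesis genes, 2 lay lower, with a list median of -0.0448. Without control replicate 1 another 2 lay higher, 22.2% of the list against 29.6% of all genes. Cyp51, the sterol demethylase, was 12.3, 10.1, 10.0 and 7.81 TPM in controls and 4.38, 1.21 and 6.34 TPM in Kl/Kl (log2 difference -1.30, SE 0.36, adjusted p = 0.128). Its groups were apart, and the 7 members with overlap differed by -0.28 to 0.18. Of 24 fatty acid oxidation genes 3 lay higher and 2 lower, among them the thiolase gene Acaa2, at 13.7 to 15.3 TPM against 10.9 to 12.1 TPM (log2 difference -0.33, SE 0.07, adjusted p = 0.0931). The higher share of this list, 12.5%, is near the 12.2% of all genes, and after median-of-ratios scaling 1 lay higher and 3 lower. The counts were 3 higher and 4 lower without Kl/Kl replicate 4.

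Markers of tubular injury were higher in part, and the number separated depended on control replicate 1. Lcn2, a lipocalin released by damaged tubules, was 2.08, 0.667, 0.779 and 0.388 TPM in control replicates 1 to 4 and 3.14, 2.54 and 4.16 TPM in Kl/Kl replicates 1, 2 and 4 (log2 difference 1.17, SE 0.25, limma adjusted p = 0.094). Vim, the intermediate filament of dedifferentiated and stromal cells, was 4.08 to 4.90 TPM against 5.17, 7.92 and 9.43 TPM. Of 11 tested injury genes these 2 had groups apart, with a median of 0.277, and without control replicate 1 it was 7 of 11, where the share over all genes was 29.6%. The differences of 10 were above 0, and that of Cryab was -0.37, with overlap. The list member Havcr1, under the filter, was 0.217 to 1.13 TPM in controls and 0.0387 to 0.281 TPM in Kl/Kl, also with overlap. Spp1, which encodes osteopontin, made up most of the injury sum of control replicate 1: it was 431, 168, 153 and 110 TPM in controls and 401, 232 and 348 TPM in Kl/Kl. Cdkn1a, the p53 target that encodes p21, was 1.11, 2.06, 0.887 and 0.76 TPM in controls and 2.54, 3.54 and 3.27 TPM in Kl/Kl, with the groups apart (log2 difference 0.93, SE 0.18, adjusted p = 0.0902, and 0.027 without control replicate 2). Mdm2, a p53 target that limits p53, was 2.07 to 2.27 TPM against 2.29 to 2.84 TPM. These are the 2 separated genes of 9 tested in the p53 list, where Sesn2, a stress-induced sestrin, had the lowest difference at -0.22, with overlap. The list held 7 higher and 1 lower without Kl/Kl replicate 4, against 18.0% and 6.87% of all genes. It held 4 higher without control replicate 1, against 29.6% of all genes.

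Immune and matrix genes varied between the Kl/Kl libraries. Of 10 tested macrophage genes 0 had groups apart although the list median was 0.494, and limma called 0, with 2 at an unadjusted p under 0.05. Without control replicate 1, 2 of 10 lay higher, under the 29.6% of all genes. Without Kl/Kl replicate 4 the list median was 0.182, with 0 higher and 1 lower (10.0%, against 6.87% of all genes). The list member Csf1r went the other way, at 1.98 to 3.18 TPM in controls and 1.82 to 2.42 TPM in Kl/Kl (log2 difference -0.27), with overlap. Lyz2, the lysozyme of macrophages and neutrophils, was 3.75, 2.57, 2.23 and 1.86 TPM in controls and 3.40, 6.89 and 16.2 TPM in Kl/Kl. Cd68, a lysosomal protein of macrophages, was 1.74, 0.861, 0.98 and 1.02 TPM in controls and 1.20, 2.08 and 5.44 TPM in Kl/Kl. In both genes Kl/Kl replicate 4 was far above the rest and replicate 1 within the controls. The summed macrophage level was 41.8 to 66.7 TPM in controls and 46.7, 74.6 and 123 TPM in Kl/Kl, and no neutrophil gene reached a mean of 1 TPM. The part of such cells in the level of C3, also highest in replicate 4, was not tested. The antibody genes Igkc and Ighm overlapped, at 5.28 to 33.02 TPM against 9.09 to 11.9 TPM and 0.56 to 4.45 TPM against 0.486 to 1.03 TPM.

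In the interferon list 3 of 7 tested genes lay higher: Ifit2 (0.762 to 0.938 TPM against 1.10 to 1.41 TPM), Ifit3 (4.52 to 5.62 TPM against 5.87 to 6.42 TPM) and Ifi27 (6.87 to 8.15 TPM against 8.54 to 11.2 TPM). Their limma adjusted p were 0.094, 0.172 and 0.128, and 2 of the list were apart and higher after median-of-ratios scaling. The others overlapped, with log2 differences of 0.40 for Irf7, 0.30 for Bst2, 0.03 for Isg15 and -0.05 for Rsad2. The matricellular gene Ccn2 was 24.9 to 35.9 TPM in controls and 38.2, 64.4 and 47.0 TPM in Kl/Kl, the 1 separated gene of 11 matrix genes (log2 difference 0.69, SE 0.18, adjusted p = 0.119). Without control replicate 1 it was 9 of 11 matrix genes, against 29.6% of all genes, and after median-of-ratios scaling of all 7 libraries 0. Egr1 and Jun, immediate early transcription factors, lay higher in 2 of 9 tested members of their list, at 1.07 to 1.63 TPM against 1.83 to 2.44 TPM and 17.9 to 21.98 TPM against 22.3 to 30.4 TPM. The count was 5 of 9 without control replicate 1 and 4 of 9 without Kl/Kl replicate 2, against 29.6% and 14.6% of all genes. After median-of-ratios scaling it was 1 of 9. Dusp6, the phosphatase induced by ERK signalling, which FGF receptors use, was 17.3, 20.7, 18.1 and 18.7 TPM in controls and 13.2, 8.04 and 10.0 TPM in Kl/Kl. It was picked after its values were seen, and its groups were apart (log2 difference -0.81, SE 0.14, adjusted p = 0.0852), while Spry1 and Spry2 of the same feedback group overlapped. Gpx1, a glutathione peroxidase, was 712 to 815 TPM against 841 to 1032 TPM, and Gclm, a subunit of the glutathione-making ligase, was 9.73 to 13.7 TPM against 7.12 to 8.99 TPM. Their antioxidant list of 18 held 2 separated higher and 1 lower, or 4 and 2 without Kl/Kl replicate 4 and 0 and 2 after median-of-ratios scaling.

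**Figure D4:**
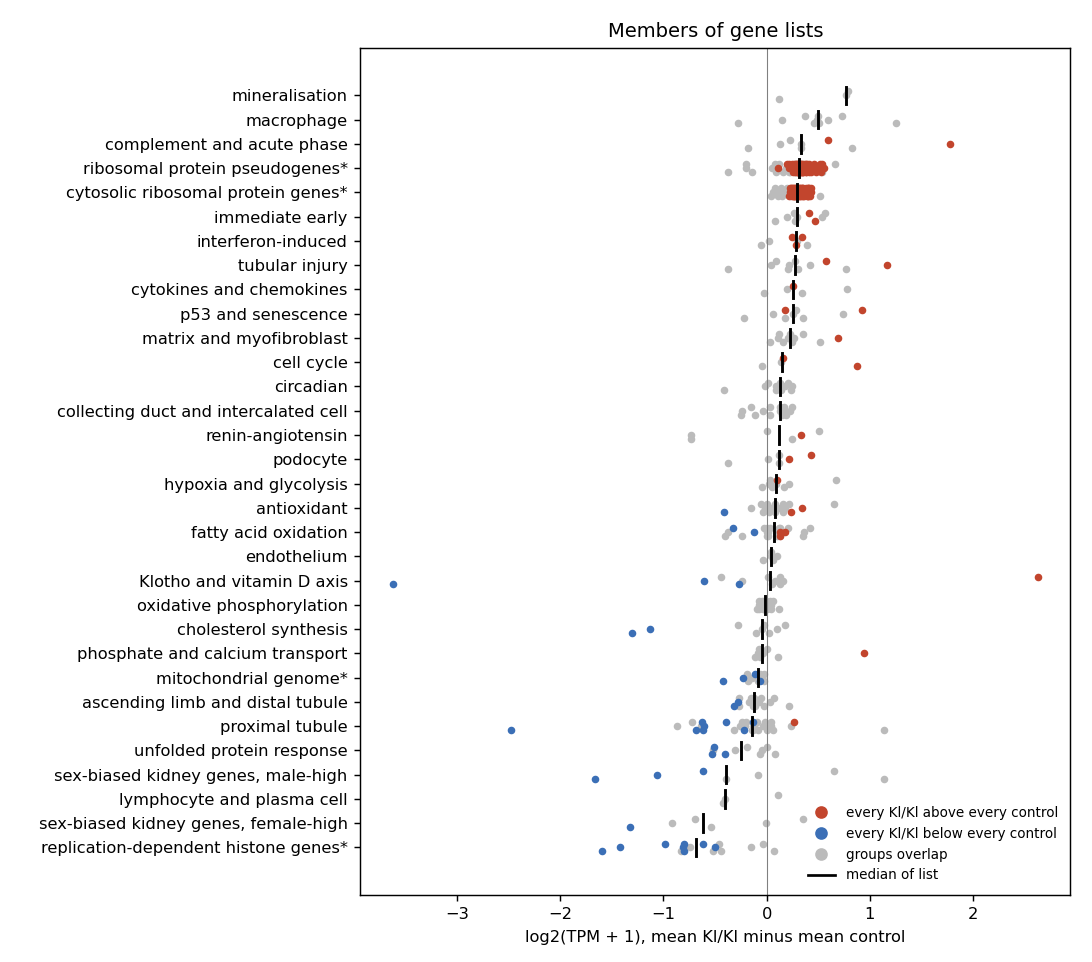
Difference of group means on the log2(TPM + 1) scale for the tested members of the gene lists, 1 row per list ordered by median (black bar), with red points where every Kl/Kl library lies above every control, blue where every one lies below and grey where the groups overlap. Ribosomal protein genes and pseudogenes form tight clusters of red points near 0.3 and histone genes spread below 0 with a median of -0.682; lists with an asterisk were added after the values were seen.

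The same contrast in the male table, Kl/Kl against +/Kl controls, was set beside that in females in a fit of 15 libraries. The change differed between the tables in 75 of 8585 genes tested (0.874%), above that of males in 52 and below it in 23. Sex, the table and the genotype of the controls (+/+ or +/Kl) cannot be told apart here. The 6 genes with the smallest p and at least 5 TPM in a group were low in all female libraries of the fit, and in males all Kl/Kl libraries were lower than any control. These genes passed the filter only through the male controls. In female controls they averaged 0.0159 to 0.204 TPM, so a fall in females could not have been seen. Cyp4a12a, a fatty acid hydroxylase known to be induced by androgen, was 0.0655 to 0.162 TPM in female controls, 0.125 to 0.259 TPM in female Kl/Kl, 8.07 to 10.3 TPM in male controls and 0.0797 to 0.310 TPM in male Kl/Kl. Its change was 0.09 (SE 0.09) in females and -3.16 (SE 0.09) in males. Acsm3, a medium-chain acyl-CoA synthetase, was 0.049 to 0.284 TPM in female controls and 0.125 to 0.764 TPM in female Kl/Kl, against 16.3 to 36.6 TPM in male controls and 0.127 to 0.646 TPM in male Kl/Kl. Levels in the 2 tables were scaled separately and are placed side by side without a test.

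Several genes with large differences in females had a larger change in the same direction in males. For Apoe the change was 0.98 (SE 0.26) in females and 3.79 (SE 0.25) in males, and the difference between them was -2.81 (SE 0.36, limma adjusted p = 0.000696). For Ugt1a1 the changes were 0.85 and 3.68 (adjusted p of the difference = 0.000439), for Gc 0.87 and 3.33 (0.0046), for Kap -1.66 and -4.54 (0.0227) and for Cyp2a4 -1.32 and -4.80 (0.00674). Apoe was 308 to 391 TPM in female controls and 513 to 946 TPM in female Kl/Kl. In males it was 38.3 to 81.5 TPM and 591 to 1131 TPM. Kap was 356 to 738 TPM and 115 to 271 TPM in females, and 3451 to 4081 TPM and 76.2 to 369 TPM in males. In both genes the Kl/Kl ranges of the tables overlapped and the control ranges did not. The adjusted p of the difference was 0.699 for Kl (-3.63, SE 0.31, in females and -3.19, SE 0.30, in males) and 0.702 for Cyp27b1 (2.63, SE 0.25, and 2.98, SE 0.24). The difference in change was -0.44 (SE 0.43) for Kl and -0.35 (SE 0.35) for Cyp27b1. Gm45315 and Gm5454, which fell in females, had changes of -3.67 (SE 0.22) and -1.59 (SE 0.33) in males, and 5930430L01Rik had 0.92 (SE 0.13). Gm16199 went the other way by its mean, with a change of -0.38 (SE 0.33) and an adjusted p of 0.0544 for the difference. It was 3.49, 2.75 and 9.07 TPM in male control replicates 1 to 3 and 1.88 to 5.89 TPM in male Kl/Kl. Only male control replicate 3 lay above the Kl/Kl range, and male control replicates 1 and 2 lay within it. Gm6520 overlapped in males, at 1.30 to 5.12 TPM against 1.65 to 6.77 TPM (change 0.45, SE 0.31), as did Rpl13a-ps1, at 5.49 to 8.72 TPM against 8.65 to 14.4 TPM (change 0.67, SE 0.16). Chrna4 was 2.39 to 2.80 TPM in male controls and 0.277 to 1.46 TPM in male Kl/Kl (change -1.19, SE 0.17). The chaperone genes Hsp90b1, Calr and Pdia6 had changes of -0.46 (SE 0.24), -0.85 (SE 0.24) and -0.46 (SE 0.22) in males, beside -0.53, -0.51 and -0.41 in females. In males the groups of all 3 overlapped, through male control replicate 3 alone. Male control replicates 1 and 2 lay above every male Kl/Kl library in each gene. They were 39.2 and 31.5 TPM for Hsp90b1, 171 and 131 TPM for Calr, and 11.2 and 8.34 TPM for Pdia6. Male controls and male Kl/Kl were 14.95 to 39.16 and 15.39 to 23.72 TPM for Hsp90b1, and 74.07 to 170.7 and 43.99 to 82.23 TPM for Calr. For Pdia6 they were 3.977 to 11.16 and 3.554 to 6.232 TPM.

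**Figure D5:**
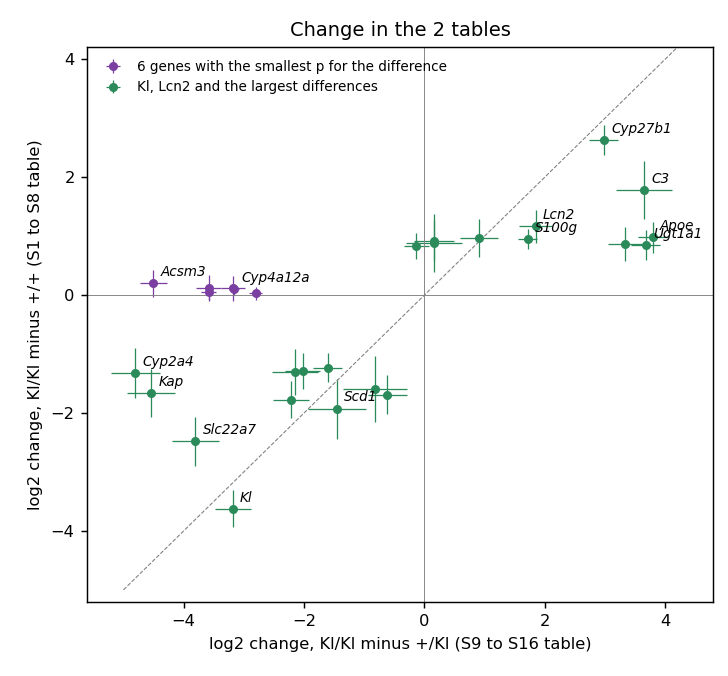
Log2(TPM + 1) change of Kl/Kl against controls in the male table (x axis) and the female table (y axis) with SE bars from the fit of 15 libraries, for the 6 genes with the smallest p for the difference (purple) and for Kl, Lcn2 and the genes with the largest separated differences (green); the dashed line marks equal changes. The purple genes lie near 0 in females and between -2.80 and -4.50 in males, and Apoe, Gc and Ugt1a1 lie below the dashed line.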

How the data were processed

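Polyadenylated RNA of perfused, frozen kidney was extracted with a miRNeasy kit and made into libraries with an NEB directional kit, per the labels' protocols. The authors deposited TPM values, with build mm39 and the program Partek named in the submitters' processing notes. For the aligner, the counting and the use of strand, the sources used here give nothing, so reads of overlapping genes cannot be told apart by strand. Each column sums to 265288, no value is 0, and from the low values each gene appears to be divided by its genomic span. Depth (21.7 to 31.3 M reads) was estimated by taking the lowest products of value and span in each column as 0.0001 read, which puts 72.7% to 74% of low genes within 0.05 of a whole number. It is not a count, so the errors given are those between libraries.

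The test was limma 3.58.1 (trend) in R 4.3.3 on log2(TPM + 1), for genes that averaged 1 TPM or more, at a Benjamini-Hochberg adjusted p under 0.05 over all 8748 genes. A fold change on this scale understates that of low genes. Groups do not overlap where every Kl/Kl library lies beyond every control. Figures were drawn with matplotlib 3.10.9 in Python 3.11.15. On simulated data of this design, 93% of 200 genes changed 2-fold and 99% of those changed 4-fold were recovered, with 11 and 7 false calls. The changed genes were drawn only from those with a mean of at least 5 TPM. Normal noise was drawn separately for each gene and library, so deviations that a library shares over many genes were not simulated. Whether these recovery rates hold in the measured libraries was not tested. There, 51 genes differed by at least 1 on the log2(TPM + 1) scale, and 9 genes with a difference of any size passed the threshold. No pair among the 8 libraries shared more than 255 equal values of 30277.

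Replicate numbers come from the titles. Deviations from group means correlated by 0.227, 0.212 and 0.476 between same-numbered libraries of replicates 1, 2 and 4, all above 0.1. Among differently numbered libraries the highest was 0.101, between Kl/Kl replicate 1 and control replicate 2. Same-numbered pairs have equal ages, but replicates 1 and 2 of both groups were all 45 days old, so age cannot tell those pairs apart. Control replicate 3 has no partner in the fit. The numbers were taken to pair the samples from these same values, so results with the block are not independent support for a difference.

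Named genes were Kl, the 10 largest positive and 10 largest negative separated differences among genes with a regular symbol and at least 5 TPM in a group, up to 4 members per list past the threshold or with groups apart (otherwise up to 2 as values), the mineral lists, and the 6 genes of smallest p for the difference between tables. Others are named as called genes, list members, or chosen after their values were seen. The members, 38 lists and 6 added lists were chosen with earlier results of these data known. Alternatives were other pseudocounts, filters, scalings, covariates, weights and left-out libraries. A few list members are not reported here by name.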

Additional observations from a re-analysis of the deposited data

Results flagged for a closer look

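Calb1 was 21.33 TPM in control replicate 1, against 16.98 to 17.48 TPM in the other controls. Nr1d1, a clock repressor gene, was 7.996 TPM in control replicate 4, against 19.55 to 20.75 TPM in the others, and 17.3, 14.1 and 6.69 TPM in Kl/Kl replicates 1, 2 and 4. Both lie far from a group of 4 by the gap relative to the range. With 83 groups examined and 2 found, chance alone gives about 1 in 20.

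The female change exceeded the male change in 6 genes with the smallest p, by 3.26 in Cyp4a12a, 3.63 in Ugt2b37, 2.83 in Gm6300, 4.7 in Acsm3, 3.7 in Slco1a1 and 3.29 in Cyp2j13 on the log2(TPM + 1) scale, with limma adjusted p from 6.89e-10 to 1.42e-05. Each had a male change between -2.80 and -4.50 and a female change between 0.03 and 0.20. In these genes female controls averaged 0.0159 to 0.204 TPM, so a fall in females could not have been seen. They reached the filter only through the male controls, which averaged 6.24 to 29.3 TPM. Sex, table and control genotype cannot be told apart.

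Library S5, left out of the comparisons, held summed levels of 2090 TPM for heart muscle genes, 1070 TPM for airway genes and 1370 TPM for adipocyte genes, against at most 2.35, 1.24 and 25.9 TPM in the other 7 libraries.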

How the results depend on the processing

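Kl stayed lower and past the threshold in all 19 alternatives, and Gm45315 in 18 of 19. The number of genes past the threshold, higher and lower, was 5 and 4, and it was 0 and 3 with S5 included, 0 and 2 with a pseudocount of 0.1, 1 and 3 with 0.5, 0 and 3 with no filter, 3 and 2 with a mean of at least 5 TPM, 1 and 3 with median-of-ratios scaling or with scaling to nuclear genes, 7 and 10 with the replicate block, 25 and 12 with array weights, 0 and 4 with a robust fit, and 4 and 9 in the fit of both tables. Leaving out a library gave 0 to 22 higher and 3 to 26 lower calls. Genes with groups that do not overlap numbered 1068 and 341, and 412 higher with S5, 2181 and 805 with no filter, 499 and 160 at a mean of 5 TPM, 702 and 738 with median-of-ratios scaling on its own filter, and 583 lower with scaling to nuclear genes. Leaving out a library gave 1181 to 2580 and 392 to 666. The exact permutation p of Kl was 0.0286 with S5 (difference -3.71). The replicate block changed no call of a named gene other than those of S100g, Ptgds, Kap, Gm16199 and Rpl13a-ps1 given above. In the difference between tables, 52 and 23 became 18 and 0 with S5, 183 and 79 with median-of-ratios scaling within each table, 298 and 40 without male control replicate 3, and 25 and 12 at a mean of 5 TPM.

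With S5 included the difference turned to -0.69 in S100g, -0.33 in Ccnd1, -0.0387 in Gc, -0.0805 in Ugt1a1, -0.73 in Nat8, -0.15 in Pax8, -0.0744 in Fgfr1, -0.85 in Pth1r, -0.23 in Rxra, -0.51 in Fgfr3, -0.50 in Fgfr4, -0.0268 in Slc20a1, -1.34 in Aqp2, -0.23 in Gpx1 and -0.46 in Tef, and to 0.0164 in Ighm and 0.63 in Igkc. With median-of-ratios scaling Fgfr4 became -0.0056. With a library left out, the difference ran from -0.0414 (without control replicate 2) to 0.167 in Fgfr3, from -0.0308 (without control replicate 2) to 0.0983 in Fgfr4, from -0.201 to 0.0141 (without Kl/Kl replicate 2) in Slc34a1, from -0.2135 to 0.0915 (without Kl/Kl replicate 2; 0.00415 without control replicate 1) in Calb1, and from -0.2243 to 0.0795 (without Kl/Kl replicate 4) in Slc34a3. The cause was not tested. Depth is estimated from the values, so no counting limit is given.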

Other observations

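Rpl29, a ribosomal protein gene with many near-identical copies, was 3.21, 3.14, 2.22 and 33.5 TPM in control replicates 1 to 4 and 3.80, 3.45 and 39.0 TPM in Kl/Kl replicates 1, 2 and 4, so that both replicates 4 stood apart from the rest. Slc7a13, an amino acid transporter gene with higher levels in male kidney, was 0.584 to 0.988 TPM in controls and 4.89, 4.31 and 0.802 TPM in Kl/Kl, with replicate 4 at the control level. Gatm, which makes the precursor of creatine, was 66.4 to 97.4 TPM in controls and 70.4, 27.7 and 43.3 TPM in Kl/Kl, with replicate 1 within the controls. Pck1 and G6pc, genes of glucose production, were lowest in control replicate 1 (340 and 35.0 TPM, against 833 to 1534 and 110 to 135 TPM in the other controls). The renin gene Ren1 was 9.62 to 20.3 TPM in controls and 19.4, 4.73 and 8.05 TPM in Kl/Kl. These genes were picked after their values were seen.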
